A study of Homo sapiens with 7 samples.

Results

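Immediate early response genes are the first genes that a cell transcribes after a growth factor, stress or other stimulus, and they need no newly made protein to be switched on. Many of them encode transcription factors, among them the FOS and JUN proteins, which pair with each other to form AP-1, and EGR1, a zinc finger factor. In liver these genes are known for their response to partial hepatectomy and to injury. The 10 genes studied here were FOS, FOSB, JUN, JUNB, JUND, EGR1, IER2, ATF3, DUSP1 and MYC, and they were taken by symbol from the 30032 loci of the expression table, of which 23303 carried a gene symbol. All 10 were present. The human liver cancer cell line HepG2 was measured in 7 samples, which were native MNase-Seq for nucleosome positions, ChIP-Seq of 5 histone marks and RNA-Seq, with 1 sample per assay. The cells were freshly cultured, with no treatment, stimulus or time point in the labels, so the values describe cultured cells with no stated stimulus and not an induced response. There were no replicate samples and no groups to compare, hence no test was made and no P value is given. Counts of nucleosomes below come from lists of positions without read counts, and the number of reads at any single position is not known.

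HepG2 cells in this table carried the expression of hepatocytes, with ALB, the serum albumin gene, at 10011 FPKM and 7 of 8 hepatocyte markers at 12.5 FPKM or more (fragments per kilobase of transcript, scaled to the size of the library, a level that is comparable between genes). The eighth, the apolipoprotein gene APOA1, is listed in 2 rows with the same coordinates on opposite strands, at 0.923 and at 1427 FPKM, and no strand for it was at hand to choose between them. The leukocyte markers PTPRC and CD3E were listed at 0 and CD14 at 2.53 FPKM, the 3 endothelial markers lay between 0.137 and 0.693 FPKM, and the 3 fibroblast markers lay between 0.164 and 2 FPKM.

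Of the 10 immediate early response genes, 9 were at 1 FPKM or more and only FOSB was lower. Over all 22113 named loci this share was 51.3%. The levels are the means of the 2 FPKM columns of the RNA-Seq sample. The authors labelled these columns hepg2_hr2 and hepg2_hr3, and they are called run 1 and run 2 here for brevity. Whether these columns are separate cultures is not stated in the sources used here. JUND, the JUN family member that many resting cells express, was the highest, at 62.4 FPKM in run 1 and 60.5 in run 2. MYC, a growth-promoting transcription factor that binds DNA with MAX, followed at 46.8 and 43.4 FPKM. Both were above the 90th percentile of all named loci, which was 36.4 FPKM.

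JUN, the principal partner of FOS in AP-1, was at 17.6 FPKM in run 1 and 17.8 in run 2. IER2, which encodes a small nuclear protein, was at 13.1 FPKM in both. These levels lay just above the upper quartile of named loci, 12.5 FPKM. DUSP1, the phosphatase that switches off MAP kinases, was at 8.25 and 7.81 FPKM. JUNB, another JUN family member, was at 5.68 and 5.1 FPKM. ATF3, a stress-induced factor of the ATF/CREB family, was at 4.58 and 4.37 FPKM. These genes were expressed at moderate levels, above 60% or more of named loci.

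The lowest levels of the 10 genes belonged to EGR1, FOS and FOSB. EGR1 was at 2.26 FPKM in run 1 and 2.02 in run 2. FOS was at 1.15 and 1.08 FPKM, slightly below the median of all named loci, which was 1.24 FPKM. FOSB was at 0.369 and 0.157 FPKM, and its runs differed by a factor of 2.35, whereas in the other genes the ratio of the runs was 1.01 to 1.12. For comparison, the median ratio over named loci was 1.07. In the order of the 10 genes no neighbouring genes overlapped in their run values, but 2 values give no estimate of the error between cultures. The plot of FPKM by run shows this order, with the JUN family spread from 5.39 to 61.5 FPKM in the mean and FOS and FOSB at its foot.

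**Figure D1:**
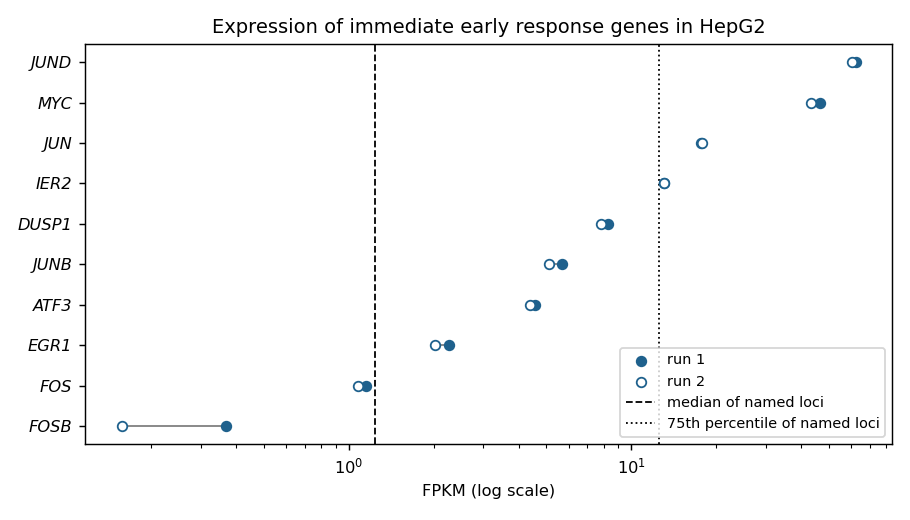
FPKM (log scale) of the 10 immediate early response genes in HepG2, with filled points for run 1 and open points for run 2, and the median and 75th percentile of 22113 named loci as lines. JUND, MYC, JUN and IER2 lie above the 75th percentile of 12.5 FPKM, while FOS and FOSB lie below the median of 1.24 FPKM.

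Immediate early promoters are known for binding sites of SRF (the CArG box) and of CREB and ATF factors (the CRE), where signals from growth factor and stress kinases arrive. The 250 bases before the start of transcription were read from RefSeq (build GRCh38.p14), which held an entry for 9 of the 10 genes. Sites were searched on both strands. Counts are for the first RefSeq promoter of each gene, and only ATF3 had another, with 44.8% G and C and TATAAA at positions -230 to -225. The start of ATF3 used in HepG2 is not known. Bases at its longest marked stretch, 41.7 to 44.6 kb inside the locus, were not searched, so what follows on ATF3 holds for the RefSeq windows only. The CRE core TGACG was present in 8 of the 9, that is in all except ATF3 (in either promoter), against 21.2% of 35116 RefSeq promoters, and the full TGACGTCA, which contains that core, in JUND and DUSP1, against 1.65%. The box TATAAA stood between positions -33 and -25 in FOS, FOSB, JUNB and DUSP1, and 10.7% of all promoters held it anywhere in the 250 bases. Within these 250 bases the CArG box was found in EGR1 alone, at positions -105 to -96 and -83 to -74 from the start, against 1.16% of all promoters. Sites farther upstream were not searched, so a gene with no match here may still hold one. CACGTG, the site known for MYC and MAX, was present in DUSP1, against 6.34%. Neither the AP-1 site (TGACTCA or TGAGTCA, 4.2% of all promoters) nor the EGR site (GCGTGGGCG or GCGGGGGCG, 5.37%) was in any of the 9 windows. Only these exact letters were searched, so variants of either site were not counted. The windows were rich in G and C, from 62% in JUN to 74.8% in JUND, except for ATF3 with 49.2%, whereas the median of all promoters was 58%. A match of letters is a description and does not show that a factor bound there in HepG2.

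The 5 promoters printed here are those of EGR1 (chr5:138465229-138465478, plus strand), FOS (chr14:75278578-75278827, plus strand), DUSP1 (chr5:172771196-172771445, minus strand), JUND (chr19:18281623-18281872, minus strand) and JUN (chr1:58784048-58784297, minus strand), which were chosen to stand for the different nucleosome strings described further on. Capitals mark CArG boxes, TGACG on either strand, TATAAA and CACGTG, and the last base is the one before the start.
EGR1: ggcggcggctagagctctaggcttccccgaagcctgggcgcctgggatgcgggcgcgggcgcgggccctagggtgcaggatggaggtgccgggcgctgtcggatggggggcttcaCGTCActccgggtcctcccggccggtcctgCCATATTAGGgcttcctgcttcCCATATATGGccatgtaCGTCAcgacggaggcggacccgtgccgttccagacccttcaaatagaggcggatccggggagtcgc
FOS: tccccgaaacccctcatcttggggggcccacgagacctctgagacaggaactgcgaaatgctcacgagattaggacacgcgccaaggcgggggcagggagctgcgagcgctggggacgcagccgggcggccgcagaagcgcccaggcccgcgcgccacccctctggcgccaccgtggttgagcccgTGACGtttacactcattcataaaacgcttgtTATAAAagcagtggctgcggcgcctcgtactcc
DUSP1: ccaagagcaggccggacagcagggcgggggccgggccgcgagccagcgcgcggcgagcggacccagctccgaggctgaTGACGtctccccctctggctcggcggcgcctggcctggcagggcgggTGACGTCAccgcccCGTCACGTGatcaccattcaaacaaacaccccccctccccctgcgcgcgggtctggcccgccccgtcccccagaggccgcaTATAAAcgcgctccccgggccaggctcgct
JUND: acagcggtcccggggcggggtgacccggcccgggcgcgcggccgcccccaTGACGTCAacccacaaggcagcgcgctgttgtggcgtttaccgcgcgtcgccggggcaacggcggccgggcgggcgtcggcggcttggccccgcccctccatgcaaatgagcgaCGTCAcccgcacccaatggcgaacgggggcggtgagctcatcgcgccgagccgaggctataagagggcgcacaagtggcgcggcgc
JUN: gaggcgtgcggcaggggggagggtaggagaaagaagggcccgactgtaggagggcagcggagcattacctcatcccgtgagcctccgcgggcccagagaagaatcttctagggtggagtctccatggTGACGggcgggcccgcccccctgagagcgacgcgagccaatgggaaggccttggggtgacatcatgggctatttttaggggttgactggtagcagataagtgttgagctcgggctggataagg
EGR1 shows a pair of CArG boxes between 2 CRE cores, and DUSP1 shows 4 overlapping or nearby CRE cores, the last of them overlapping CACGTG, with TATAAA close to the start.

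Nucleosomes near active promoters carry H3K4me3, H3K9ac and H3K27ac, whereas H3K27me3 and H3K9me3 mark repressed chromatin. With single-nucleosome data each position can be given its exact set of marks. A position with H3K4me3, H3K9ac and H3K27ac together is called trivalent, or "T", one with H3K4me3 and H3K9ac is "D", and one with H3K4me3 alone is "A". Over the 10 loci with 10 kb on either side, 181 nucleosomes carried a mark. Of these 86 were "T", which is 47.5% (exact 95% interval 40.1 to 55.1, for counting error only), 38 were "A" and 22 were "D". FOSB and IER2, whose loci are shared with other named genes, supplied 83 of the 181, and the share of "T" was 52% without these genes. H3K27ac alone was on 12, H3K9ac with H3K27ac on 8, H3K9ac alone on 7 and H3K4me3 with H3K27ac on 5. In the 13576 named loci whose coordinates no other named locus shared, which serve as the background throughout and include 8 of the 10 genes, "T" made up 29% of marked nucleosomes, and 35.5% in the loci of at least 1 FPKM. Locus length, which sets how much of a window lies away from the promoter, was not matched. With 50 kb on either side the share in the 10 loci was 36%, and no background share is given for that window. The share varied between genes from 16.7% in FOS (1 of 6) to 76.5% in MYC (13 of 17) and 80% in JUN (8 of 10).

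No nucleosome with H3K9me3 was present over any of the 10 loci with 10 kb on either side, and H3K27me3 was present over 2 of them, with 1 nucleosome 8.38 kb upstream of JUNB and 2 in the wide locus that lists FOSB. H3K27me3 or H3K9me3 was present over 45.4% of background loci, and over 54.1% of the 7008 background loci below 1 FPKM. No share was computed for the background loci of at least 1 FPKM, the level of 9 of the 10 genes. Locus length was not matched here either. The number of genes depends on the window, with 1 of the 10 at 2 kb or 5 kb on either side and 6 at 50 kb. The 2 nucleosomes in the locus that lists FOSB, the least expressed gene, lay 73.2 and 96.9 kb from its low end. Other named genes share that locus, so neither nucleosome can be assigned to FOSB. FOS and EGR1, the next lowest in expression, had no H3K27me3 or H3K9me3 in their windows.

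The TSS was taken as the 5' end of the listed locus, which was possible for 8 of the 10 genes. FOSB and IER2 share their listed coordinates with other named genes and are described at the end. Of the 8 genes, 6 had at least 3 "T" nucleosomes within 2 kb of the TSS, against 27.9% of the background and 55.7% of background genes of at least 1 FPKM. The median was 5 "T", while expressed background genes had a median of 3, an upper quartile of 4 and a 90th percentile of 6. The map of marked nucleosomes around the TSS shows how different the strings of the 8 genes were.

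**Figure D2:**
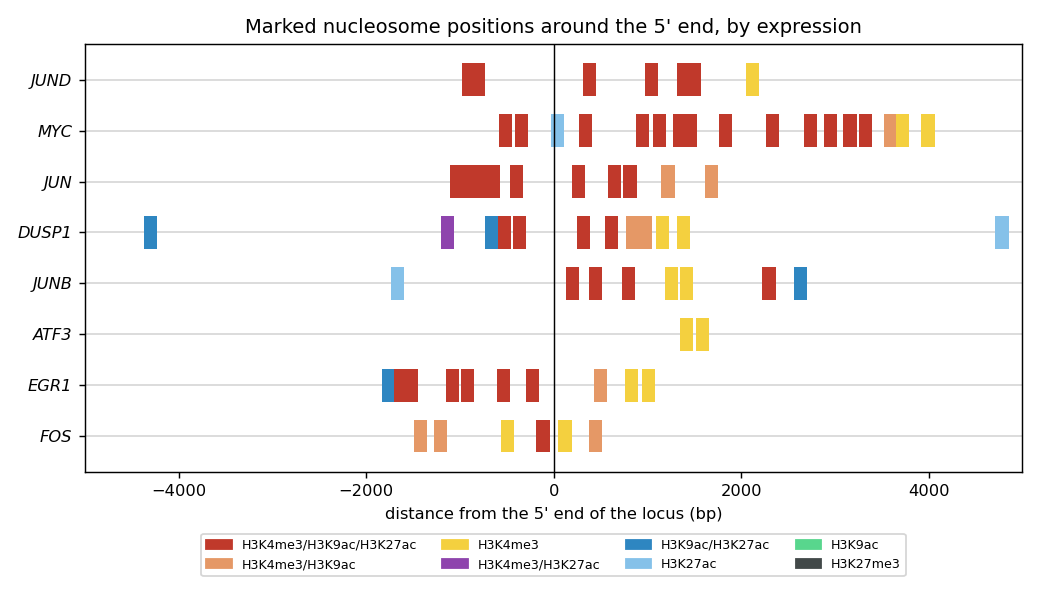
Marked nucleosome positions within 5 kb of the 5' end of the locus in 8 immediate early response genes, one row per gene with the highest expression at the top, each box 140 bp wide around the midpoint of a position and coloured by its exact set of marks. Dark red boxes are trivalent: they cover both sides of the TSS in JUN and MYC, lie only upstream in EGR1 and only downstream in JUNB, and are absent in ATF3.

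JUN (hg19 chr1:59246463-59249785, minus strand) had 8 "T" within 2 kb, in 1 unbroken run of 8. From 5' to 3' these lay at -1031, -898, -768, -638, -401, 269, 649 and 814 bp from the TSS, followed by 2 "D" at 1219 and 1679 bp, and all 10 listed nucleosomes of this 2.71 kb stretch carried a mark. As many "T" were found in 1.55% of the background and in 3.44% of the 2614 genes within 2-fold of its FPKM, whose median was 3. The listed positions on either side of the TSS were 670 bp apart in JUN, the widest distance of the 8 genes, while the median of expressed background genes was 372 bp (quartiles 238 and 518). A locus listed as LOC100131060 begins 1037 bp upstream on the other strand with 0.0189 FPKM.

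MYC (hg19 chr8:128747702-128753680, plus strand) also had 8 "T" within 2 kb. Its listed locus is 5979 bp long against 7518 bp for the gene in RefSeq, and no RefSeq promoter was at hand to check the start. Distances and sides for MYC therefore hold for the listed 5' end only. Its string began with "T" at -515 and -340 bp, then H3K27ac alone at 41 bp, and 11 more "T" ran from 342 to 3325 bp, ending with "D" at 3590 bp and "A" at 3720 and 3992 bp. The stretch was 4.51 kb long with 17 of 18 listed nucleosomes marked and 13 "T", and 0.14% of the background had a stretch as long at the TSS. Expressed background genes had a median stretch of 1.29 kb and a 90th percentile of 2.31 kb. The number of "T" in MYC therefore depends on the window, with 4 within 1 kb, 8 within 2 kb and 13 within 5 kb.

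JUND (hg19 chr19:18390563-18392432, minus strand), although the most expressed of the 10, had fewer marked nucleosomes than JUN or MYC. All 6 marked positions within 2 kb were "T", at -909, -801, 386, 1046, 1381 and 1496 bp, and the positions next to the TSS on either side, at -364 and 76 bp, carried no mark. As many "T" were found in 6.37% of the background and in 19.1% of the 1187 genes within 2-fold of its FPKM. Within 1 kb of the TSS JUND had 3 "T". The microRNA locus MIR3188, 454 bp upstream, was listed at 0 FPKM.

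EGR1 (hg19 chr5:137801181-137805004, plus strand) had 6 "T" at a low level of expression, and all 6 were upstream of the TSS, at -1634, -1519, -1077, -924, -539 and -224 bp. Downstream it had "D" at 496 bp and "A" at 826 and 1011 bp, with no H3K27ac. Of the 440 background genes with 6 "T" within 2 kb, 7 (1.59%, EGR1 included) had all of them upstream. The 1279 genes within 2-fold of its FPKM had a median of 1 "T" (quartiles 0 and 3), and 6.18% of them had as many as EGR1. Within 1 kb of the TSS EGR1 had 3 "T". No other named locus lies within 10 kb of EGR1.

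DUSP1 (hg19 chr5:172195093-172198203, minus strand) had 10 marked nucleosomes within 2 kb, in a 2.52 kb stretch in which 10 of 11 listed positions were marked. The 4 "T" were at the centre, at -523, -363, 320 and 612 bp. Downstream of them came "D" at 846 and 982 bp and "A" at 1162 and 1382 bp, so that H3K27ac was absent beyond 612 bp and H3K9ac beyond 982 bp up to the end of the stretch. Upstream the order ended with H3K9ac/H3K27ac at -660 bp and H3K4me3/H3K27ac at -1133 bp. The count of 4 "T" was met by 34.8% of the 2662 genes within 2-fold of its FPKM, whose median was 3.

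JUNB (hg19 chr19:12902310-12904125, plus strand) had 3 "T" within 2 kb, all downstream, at 202, 442 and 797 bp. Then came "A" at 1260 and 1415 bp, and 1 more "T" at 2297 bp. The one marked position upstream within 2 kb was H3K27ac alone at -1666 bp. The median of the 2254 genes within 2-fold of its FPKM was 3 as well. A further group of 4 marked nucleosomes from 9672 to 10432 bp lies at the 5' end of PRDX2, a peroxiredoxin gene with 183 FPKM, and its 2 "T" count in the JUNB window of 10 kb.

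FOS (hg19 chr14:75745481-75748937, plus strand) had 6 marked nucleosomes, all with H3K4me3, but only 1 "T", at -114 bp. The order was "D" at -1419 and -1204 bp, "A" at -494 bp, the "T", "A" at 121 bp and "D" at 448 bp. Thus H3K4me3 was on 6, H3K9ac on 4 and H3K27ac on 1. Of 1020 background genes with 6 H3K4me3 nucleosomes within 2 kb, the median number with H3K27ac was 4, and 13% had at most 1. Among the 72 of them within 2-fold of the FPKM of FOS the median was 3, and 33.3% had at most 1. No other named locus lies within 10 kb of FOS.

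ATF3 (hg19 chr1:212738697-212794116, plus strand) is known to have more than 1 first exon, so that the 5' end of its 55.4 kb locus need not be the start used in HepG2. Within 2 kb of that end it had 2 marked nucleosomes, "A" at 1415 and 1587 bp, and no "T". Its longest stretch lay inside the locus, from 41.7 to 44.6 kb downstream, with 12 of 15 listed nucleosomes marked. The order there was H3K9ac, 2 "A", a "T", an "A", 5 "T" between 43.6 and 44.1 kb, then "D" and "A". Of the 7 "T" in the ATF3 window with 10 kb on either side, 6 lay in this stretch and the other at -6600 bp, so that none was counted at the 5' end of the locus.

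The order by expression and the order by "T" were not the same. MYC and JUN had the most "T", JUND was higher than both in FPKM with 6, and EGR1 reached the same 6 "T" as JUND with a mean FPKM of 2.14 against 61.5. ATF3 and JUNB were close in FPKM, with 4.48 and 5.39, and had 0 and 3 "T" at the 5' end of the locus, although ATF3 had 6 "T" in the stretch inside its locus. With 8 genes, no correlation is given. In the plot of "T" against FPKM, EGR1 lies in a sparse part of the cloud of genes, while JUNB and DUSP1 lie in its middle.

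**Figure D3:**
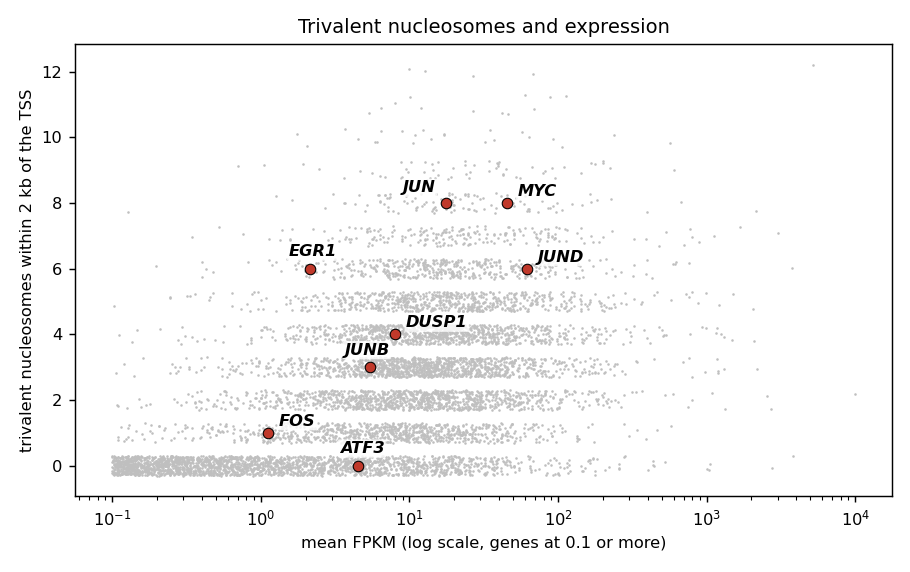
Trivalent nucleosomes within 2 kb of the TSS against mean FPKM (log scale), with grey points for background genes at 0.1 FPKM or more, spread vertically at random by up to 0.3 for visibility, and red points for 8 immediate early response genes. JUN and MYC have 8 trivalent nucleosomes, EGR1 has 6 at 2.14 FPKM, and FOS and ATF3 have 1 and 0.

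The side of the TSS on which "T" lay also varied. In the 8 genes together 18 of 36 "T" within 2 kb were downstream, 50% (exact 95% interval 32.9 to 67.1, which treats nucleosomes as independent although those of 1 gene are not), whereas in the background 75.3% were downstream. JUNB had 0 upstream and 3 downstream, MYC 2 and 6, JUND 2 and 4, DUSP1 2 and 2, JUN 5 and 3, FOS 1 and 0, and EGR1 6 and 0. EGR1 and JUN, and FOS with its single "T", had more upstream than downstream, and EGR1 and JUN contributed 11 of the 18 upstream "T". The other immediate early genes listed further on did not share this upstream share. None of those with a usable TSS had more than 1 "T" upstream, with 1 upstream and 8 downstream in RHOB and 1 and 7 in KLF6.

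**Figure D4:**
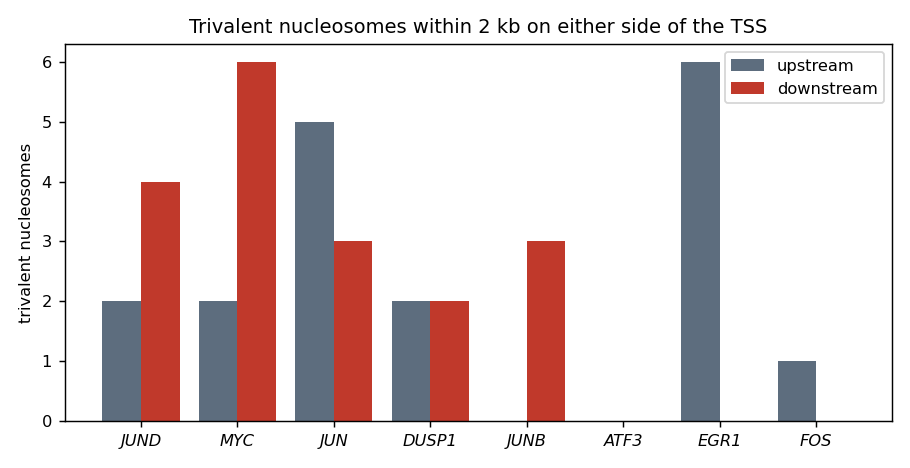
Number of trivalent nucleosomes upstream (grey) and downstream (red) within 2 kb of the TSS in 8 immediate early response genes, ordered by expression from left to right. EGR1 has 6 upstream and 0 downstream, JUN 5 and 3, and JUNB 0 and 3.

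FOSB and IER2 lie in loci that the table lists with the same coordinates as their neighbours, and nucleosomes of these genes cannot be told apart by the table alone. IER2 (hg19 chr19:13254883-13265718) shares 10.8 kb with STX10, a syntaxin gene with 16.2 FPKM, and the 2 genes are on opposite strands in RefSeq. One stretch from 5.88 to 10.6 kb from the low end of the locus held 17 marked nucleosomes of 18 listed, with 10 "T", and was as continuous as that of MYC. A second group of 7 marked nucleosomes at 19.4 to 20.5 kb lay beyond the locus, 2 of them "T" and none "A" or "D", since all 7 carried H3K27ac.

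FOSB (hg19 chr19:45882851-45982341) is listed in a locus of 99.5 kb, together with PPP1R13L, CD3EAP and ERCC1, while the FOSB gene itself is 7184 bp long in RefSeq and comes last of the 4 in order. The window held 58 marked nucleosomes, 23 of them "T", in 14 separate stretches, but most of these cannot be assigned to FOSB. The last long stretch of the locus, from 87.9 to 90.6 kb, had 11 of 13 listed nucleosomes marked, in the order "A", "A", "A", "D", "A", "A", 4 "T" and H3K9ac alone. H3K27me3 followed at 96.9 kb. The genes listed in the same coordinates differed in expression, with ERCC1, a DNA repair gene, at 15.5 FPKM, CD3EAP at 1.48 and PPP1R13L at 1.16 FPKM.

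**Figure D5:**
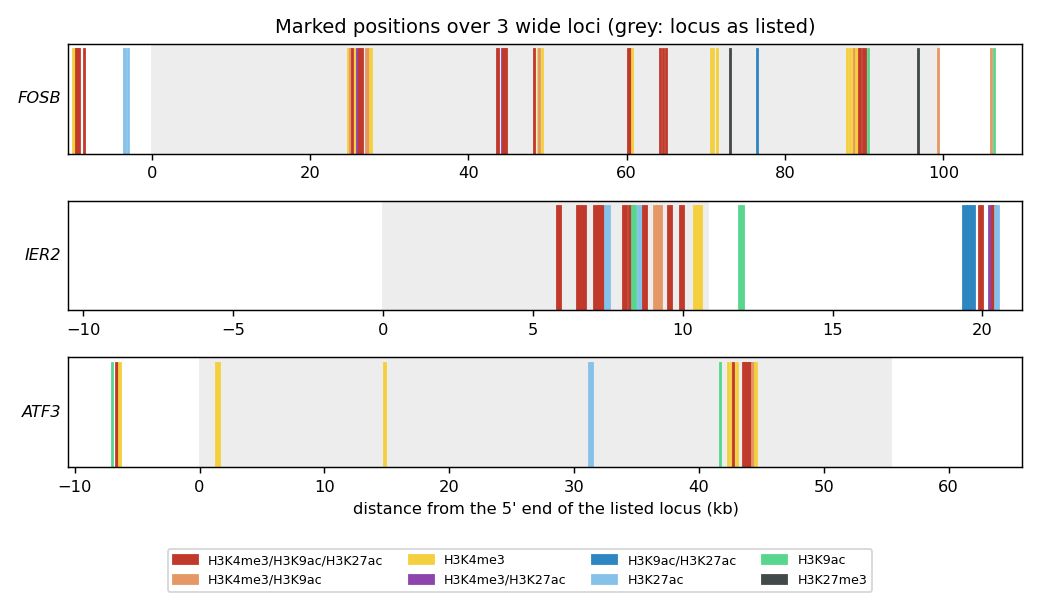
Marked nucleosome positions over the loci that list FOSB, IER2 and ATF3 with 10 kb on either side, by distance from the 5' end of the locus in kb and coloured by the exact set of marks, with the listed locus in grey and each position drawn wider than to scale so that it can be seen. Marked nucleosomes fall into 14 stretches in the FOSB window, mainly 1 stretch of 17 in the IER2 locus, and a stretch of 12 far inside ATF3.

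Other immediate early genes, a list of 28 with FOS and EGR family members, nuclear receptors and feedback regulators, gave a wide range of levels in the same cells. Of these 19 were at 1 FPKM or more (the share over named loci was 51.3%), and the median was 4.37 FPKM. RHOB, a small GTPase gene, was the highest with 143 FPKM and had 9 "T" within 2 kb, and IER3 followed with 87.3 FPKM in a row that it shares with FLOT1, without a usable TSS. The lowest were NPAS4, a neuronal factor, with 0.00525 FPKM and NR4A2, an orphan nuclear receptor, with 0.0132 FPKM. Of the 25 with a usable TSS, 12 had at least 3 "T" (27.9% of the background and 55.7% of expressed background genes did), and 11 had none (57% of the background).

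Among the 9 genes of that list below 1 FPKM with a usable TSS, 7 had at least 1 H3K4me3 nucleosome within 2 kb, against 19.4% of the 7008 background genes below 1 FPKM, and 5 had at least 4, against 6.31%. None of the 9 had an H3K27ac nucleosome there. Lack of H3K27ac was also common in the background, where 72.3% of genes below 1 FPKM with H3K4me3 had none. NR4A2 had 9 H3K4me3 nucleosomes and EGR3 had 7, and EGR4, with 4, also lay in a window with 9 nucleosomes of H3K27me3 or H3K9me3. In 5 of the 9 a repressive mark was present over the locus with 10 kb on either side, a share close to the 54.1% of background genes below 1 FPKM. EGR3, EGR4 and this count of low genes were singled out after their values had been seen.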

How the data were processed

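HepG2 was measured by native MNase-Seq, ChIP-Seq of 5 histone marks and RNA-Seq, 1 sample each, in build hg19. The submitters' processing notes name BWA for the DNA libraries and TopHat2 2.1.0, Bowtie and HOMER 4.7 for RNA. The authors called nucleosome positions with DANPOS and peaks at these positions with NUCLIZE, and deposited coordinates only, with no read counts or scores, so the number of reads behind each position is unknown here. The paper gives totals of aligned reads for the MNase-Seq and ChIP-Seq libraries, but these cannot be divided among positions. The authors deposited FPKM in 2 columns, whose mean was used. Columns of the authors' own comparison of these hold fold changes and P values and were not used.

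Each peak was assigned to the position it overlapped most. The strand was inferred from the order of locus numbering, and equalled that of RefSeq in 8596 of 8626 loci (99.7%). The TSS was the 5' end of the locus, and a position was near it if its midpoint was within 2 kb. A stretch is a series of marked nucleosomes with neighbours at most 1 kb apart. The background of 13576 loci had 1 symbol, a strand, and coordinates that no other named locus shared. The named genes were the 10 genes, their neighbours, the 2 highest and 2 lowest in FPKM of each other list, and the 3 genes most like JUN and MYC in pattern. Values of KLF6, EGR3, EGR4 and MAX were given outside this rule, with those values known. Where a symbol of another list had several rows, the row on its RefSeq strand was used, or the first row where no strand was at hand. The 10 genes had 1 row each. The genes and lists were chosen with earlier results of these data known. Shares have exact Clopper-Pearson 95% intervals. The counting was tested on simulated data. Alternatives were other windows, limits, FPKM columns, TSS ends and overlap rules, and leaving out FOSB and IER2. No sequence of MYC is printed. The software was matplotlib 3.10.9, scipy 1.17.1, pandas 2.3.3 and numpy 2.4.6 under Python 3.11.15.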

Additional observations from a re-analysis of the deposited data

How the results depend on the processing

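No paired analysis was possible because each assay had 1 sample and no result comes from a test. Of the values of the group under other settings, 25 stayed within the limits set for a change and 6 did not. With 50 kb on either side in place of 10 kb, the trivalent share was 36% in place of 47.5%, the median number of marked nucleosomes per locus was 33.5 in place of 13, and 6 genes in place of 2 had H3K27me3 or H3K9me3. That last number was 1 with 2 kb, 1 with 5 kb and 1 without FOSB and IER2, an alternative chosen after seeing the data. The values within the limits still varied. The number of genes at 1 FPKM or more was 9, and at a limit of 5 FPKM it was 6. The downstream share of "T" was 50% within 2 kb, 44% within 1 kb and 57.1% within 5 kb. Of the FPKM of single genes, only FOSB in run 2 (0.157) moved. Within 1 kb JUND and EGR1 each had 3 "T" and MYC had 4, and within 5 kb MYC had 13. Without replicate samples and read counts per position, neither biological error nor missed nucleosomes could be measured.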

Other observations

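Factors that switch on immediate early genes were all at 1 FPKM or more, against 51.3% of named loci. The 7 genes of this list had a median of 8.43 FPKM, from MKL1, a coactivator of SRF, at 4.9 FPKM and ELK3 at 5.72 FPKM to SRF itself at 17.3 FPKM and ELK1, an SRF partner, at 49.1 FPKM. The ELK1 value is that of a row shared with UXT. SRF is also an immediate early gene and had 3 "T" within 2 kb of its TSS, all downstream.

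A further list held 17 genes of the dimer networks of the FOS, JUN and MYC proteins. The MXD genes, MXI1, MNT, MGA and MLX in it belong to the network of MYC and MAX but do not encode partners of MYC itself. Of the 17, 15 were at 1 FPKM or more (51.3% of named loci were), with a median of 9.01 FPKM. ATF4, a factor of the integrated stress response, was the highest with 325 FPKM and had 5 "T", and ATF2, a JUN partner, followed with 43.8 FPKM. BATF3 and BATF, AP-1 factors known from immune cells, were the lowest with 0.0741 and 0.149 FPKM, and both had H3K4me3 without any "T". MAX, the obligate partner of MYC, was at 16.2 FPKM against 45.1 for MYC, and was named after its value had been seen.

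Likeness of pattern was measured over 13575 genes as the Euclidean distance between counts of the 5 marks in 8 bins of 500 bp around the TSS. The genes nearest to MYC were CRIM1 (distance 2.24, with 22 FPKM), EP300 (2.45, with 11.2 FPKM) and RPRD2 (2.45, with 6.69 FPKM), whereas the median distance of all genes was 6.71. Nearest to JUN were KIAA0284 (1.73, with 6.66 FPKM), C9orf119 (2.45, with 18.1 FPKM) and VCPIP1 (2.45, with 5.74 FPKM), and the median distance was 7.21. Each of these 6 genes had 6 or 7 "T" within 2 kb. High counts and small distances follow from choosing the genes by the same marks in the same window, and are no separate result.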
